A study of Mus musculus with 20 samples.

Results

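The 28 genes described here encode the pathway that makes cholesterol and the machinery that controls it: 5 regulators, 5 genes of the route to mevalonate, 4 of the isoprenoid steps that follow, 10 of the sterol steps, and 4 further lipid genes under the control of sterol regulatory element-binding proteins (SREBPs). They were chosen by name, and each was read from the probe set that the platform annotation assigns to that gene alone, taking the brighter probe set where there were several. A probe set was found for 27 of the 28. Acat2 had none named in the annotation used and was not analysed here. All 27 passed the filter applied to every gene, a value over the array's 40th percentile on 4 or more arrays, and were among the 12728 genes tested.

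Microglia, the macrophages that reside in brain tissue, were sorted by flow cytometry from perfused brains of littermates aged 8.5 months, and their RNA was measured on one-colour microarrays. WT mice gave 4 arrays, Trem2-/- mice, which lack the lipid-sensing receptor Trem2, gave 4, 5XFAD mice gave 5, and 5XFAD mice lacking Trem2 (Trem2-/-5XFAD) gave 6. The 5XFAD transgenes are human amyloid precursor protein and presenilin genes with familial Alzheimer mutations, driven by the neuronal Thy1 promoter, so amyloid is made by neurons and the sorted cells are exposed to it. The labels name no cell type to which the deletion of Trem2 is limited. The sorting gate, the sex of the animals and whether an array holds 1 animal or a pool are not stated in the labels.

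Cells make cholesterol from acetyl-CoA through mevalonate and isoprenoid intermediates to squalene, which is then closed into lanosterol and trimmed to cholesterol. SREBP precursors sit in the membrane of the endoplasmic reticulum with their escort Scap. When sterols are plentiful, the Insig proteins hold this complex there. When sterols are scarce, it moves to the Golgi, where proteases release the active transcription factor, and most genes of the pathway are switched on together. In the brain, which makes its own cholesterol, microglia also take up lipid from myelin and dying cells, and Trem2 binds lipids and lipoproteins.

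Trem2 was read first, as a check of the genotypes. Its level, on the log2(intensity + 1) scale used throughout, lay between 11.14 and 11.39 in WT and between 11.45 and 11.80 in 5XFAD. The range was 6.84 to 7.02 in Trem2-/- and 6.75 to 7.60 in Trem2-/-5XFAD, so none of the 19 assigned arrays went against its label, although no label says which part of the gene was deleted. Array medians ran from 25.7 to 28.6 intensity units. All 10 measured microglia markers, such as P2ry12, Tmem119 and Cx3cr1, lay at or above the 97.8th percentile of genes. Transcripts of salivary gland were raised in WT 1, WT 2, 5XFAD 1 and 5XFAD 2, and neutrophil markers in Trem2-/- 1 and Trem2-/-5XFAD 1. The female-specific transcript Xist was high in 3 of 4 WT, 3 of 4 Trem2-/-, 1 of 5 5XFAD and 0 of 6 Trem2-/-5XFAD arrays. Sex signal and genotype were therefore partly confounded, and counts with Xist taken into account are given with the results.

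In microglia of plaque-bearing brains a large part of the cholesterol pathway was higher than in WT. Of the 27 genes, 12 rose in 5XFAD, 1 fell and 14 did not pass the test (limma, Benjamini-Hochberg adjusted p under 0.05 over all 12728 genes, in 1 model of all 19 arrays). Over all genes, 15.0% were called in this comparison, 8.23% higher and 6.77% lower. The median log2 difference of the 27 genes was 0.51, against -0.02 over all genes tested. In 12 of the 27, all 5 5XFAD arrays lay above all 4 WT arrays, a pattern that 7.13% of tested genes showed. The 5XFAD group had the highest mean of the 4 groups for 19 of the 27 genes. A bulk measurement of this kind cannot tell more RNA per cell from a larger share of cells that contain it.

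**Figure D1:**
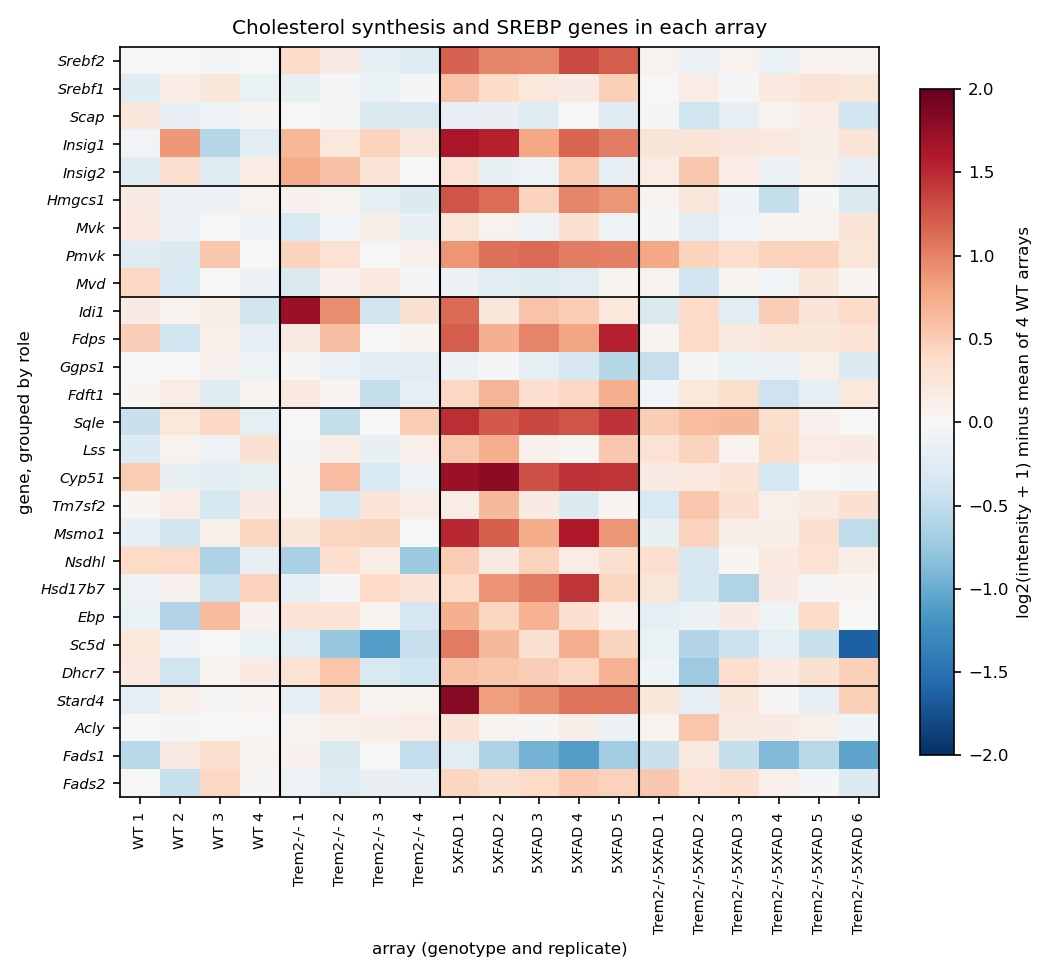
Log2(intensity + 1) of 27 cholesterol and SREBP genes (rows, grouped from top to bottom as regulators, mevalonate route, isoprenoid steps, sterol steps and further lipid genes) in each of 19 arrays (columns), as the difference from the mean of the 4 WT arrays. The 5 5XFAD columns are red for Srebf2, Insig1, Hmgcs1, Pmvk, Fdps, Sqle, Cyp51, Msmo1 and Stard4, and Fads1 is blue in 5XFAD and in 5 of the 6 Trem2-/-5XFAD arrays.

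Among the 5 regulators 3 rose. Srebf2, which encodes the sterol-directed factor SREBP2, was 6.41, 6.41, 6.38 and 6.41 in the WT arrays and 7.58, 7.38, 7.37, 7.73 and 7.61 in 5XFAD. The groups did not overlap, and the WT arrays were close to identical. Srebf2 rose by 1.13 ± 0.12 (standard error, as for all differences below; a fold of 2.19, limma adjusted p = 6.8e-07). Srebf1, which encodes the SREBP1 isoforms that favour fatty acid genes, was 5.95, 6.34, 6.41 and 6.06 in WT and 6.76, 6.55, 6.40, 6.36 and 6.66 in 5XFAD. These groups overlapped, and its rise was 0.36 ± 0.11 (adjusted p = 0.0346). The rise of Srebf1 was called in 22 of 36 planned settings and was lost, for example, without WT 1, WT 4, 5XFAD 1, 5XFAD 2 or 5XFAD 5.

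Insig1 and Insig2 are paralogous retention factors. Insig1, itself an SREBP target whose product retains Scap, was 7.84, 8.76, 7.33 and 7.67 in WT and 9.53, 9.45, 8.67, 9.07 and 8.92 in 5XFAD. One WT array, WT 2, exceeded the lowest 5XFAD array, and the other 3 lay below all of them. Insig1 rose by 1.23 ± 0.21 (adjusted p = 2.9e-04). Insig2, which also retains Scap and is known in liver as a gene under insulin rather than SREBP control, differed by 0.07 ± 0.18 with a 95% interval of -0.30 to 0.45. Its arrays spanned 6.27 to 6.86 in WT and 6.36 to 7.01 in 5XFAD, so the groups overlapped over most of their range. Scap, the escort protein, differed by -0.17 ± 0.13 (95% interval -0.43 to 0.10) and was not called.

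Of the 4 measured genes on the route to mevalonate and its phosphorylated forms, 2 rose. Hmgcs1, the synthase that makes HMG-CoA, was 6.01, 5.74, 5.73 and 5.92 in WT and 7.11, 6.97, 6.31, 6.82 and 6.73 in 5XFAD. Its groups were separate and the rise was 0.94 ± 0.15 (adjusted p = 1.8e-04). Pmvk, which adds a phosphate to phosphomevalonate, was 4.77, 4.72, 5.55 and 5.02 in WT and lay between 5.90 and 6.15 in 5XFAD, a rise of 1.03 ± 0.15. The kinase Mvk, which acts just before it, differed by 0.09 ± 0.12, and Mvd, the decarboxylase just after it, by -0.15 ± 0.14. Neither passed the test, and the upper bound of the 95% interval was 0.34 for Mvk and 0.15 for Mvd.

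The isoprenoid steps were divided in the same way. Fdps, which makes farnesyl diphosphate, was 6.05, 5.16, 5.67 and 5.38 in WT and 6.78, 6.28, 6.54, 6.35 and 7.10 in 5XFAD, without overlap. It rose by 1.05 ± 0.18 (adjusted p = 2.4e-04). Fdft1, squalene synthase and the step that commits farnesyl diphosphate to sterols, lay between 6.93 and 7.33 in WT and between 7.51 and 7.90 in 5XFAD and rose by 0.51 ± 0.16, a call kept in 27 of 36 planned settings. Ggps1, which instead draws farnesyl diphosphate towards geranylgeranyl groups for protein prenylation, differed by -0.25 ± 0.12 (95% interval -0.50 to 0.00) and was not called. Idi1, the isopentenyl diphosphate isomerase, differed by 0.52 ± 0.29 and was not called on its brighter probe set.

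Of the 10 sterol genes, 4 rose and 6 did not pass the test, and all 10 differences were positive, from 0.14 for Tm7sf2 to 1.53 for Cyp51. Sqle, squalene epoxidase and a rate-limiting enzyme of the pathway, was 3.77, 4.42, 4.63 and 4.02 in WT and 5.69, 5.43, 5.55, 5.47 and 5.65 in 5XFAD. Sqle exceeded the 40th percentile in 2 of the 4 WT arrays, so its rise of 1.35 ± 0.19 starts close to the filter and understates the fold. Cyp51, the lanosterol demethylase, was 6.20, 5.54, 5.47 and 5.54 in WT and 7.40, 7.48, 6.98, 7.14 and 7.11 in 5XFAD. WT 1 stood apart from the other WT arrays and still lay below every 5XFAD array. Cyp51 rose by 1.53 ± 0.18, a fold of 2.89 (adjusted p = 3.5e-06). Msmo1, the methylsterol oxidase of the next steps, was 5.97, 5.76, 6.24 and 6.57 in WT and 7.65, 7.33, 6.87, 7.73 and 7.01 in 5XFAD, a rise of 1.18 ± 0.21.

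Hsd17b7, the ketosteroid reductase of the same demethylation complex, rose by 0.83 ± 0.22, although its groups, 5.06 to 5.96 in WT and 5.88 to 6.93 in 5XFAD, overlapped, and the call was kept in 31 of 36 planned settings. The uncalled sterol genes were the cyclase Lss (0.39 ± 0.15), the sterol reductase Tm7sf2 (0.14 ± 0.18), the dehydrogenase Nsdhl (0.33 ± 0.22), the isomerase Ebp (0.46 ± 0.20), the desaturase Sc5d (0.63 ± 0.24) and the final reductase Dhcr7 (0.55 ± 0.22). Their adjusted p-values ran from 0.0770 for Lss to 0.672 for Tm7sf2. Sc5d and Dhcr7 had no overlap between WT and 5XFAD arrays even so.

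Among the further lipid genes the directions differed. Stard4, a cytosolic protein that carries cholesterol between membranes, was 4.21, 4.49, 4.41 and 4.44 in WT and 6.20, 5.23, 5.31, 5.47 and 5.48 in 5XFAD. The array 5XFAD 1 stood above the rest of its group, and the other 4 also exceeded every WT array. Stard4 rose by 1.15 ± 0.17 (adjusted p = 5.3e-05), from a WT level above the 40th percentile in 3 of 4 arrays. Fads1, a desaturase of polyunsaturated fatty acid synthesis, was 7.68, 8.41, 8.57 and 8.30 in WT and 8.03, 7.63, 7.29, 7.13 and 7.55 in 5XFAD. It fell by 0.71 ± 0.23 (adjusted p = 0.0376), the 1 decrease among the 27 genes, with WT 1 and 5XFAD 1 making the groups overlap, and the call was kept in 23 of 36 planned settings. Fads2, which acts with it in the same fatty acid route, differed by 0.42 ± 0.15 and was not called. Acly, the ATP-citrate lyase that supplies cytosolic acetyl-CoA, differed by 0.08 ± 0.11 and was not called.

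**Figure D2:**
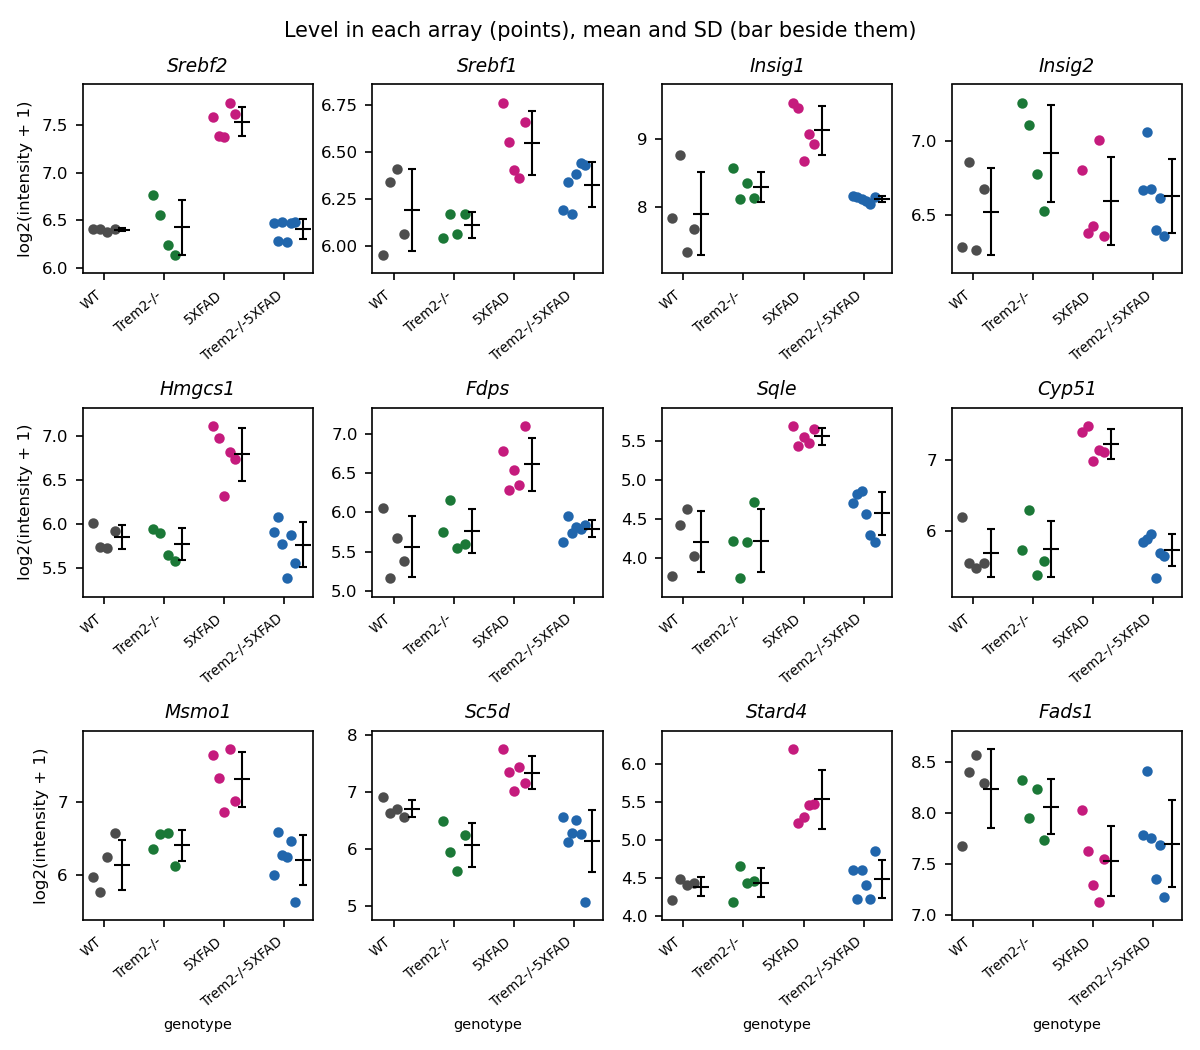
Level of 12 of the genes in each array, as log2(intensity + 1) on axes that differ between genes. Points are arrays of the 4 genotypes, with the mean and SD as a bar beside them. Srebf2, Hmgcs1, Fdps, Sqle, Cyp51, Msmo1, Sc5d and Stard4 have every 5XFAD array above every WT and Trem2-/-5XFAD array, while Insig2 overlaps in all 4 groups and Fads1 is lowest in mean in 5XFAD.

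The counts were read again with the sex signal and the arrays that stand apart taken into account. With Xist as a covariate 12 genes were higher and none lower, of which 9 were among the first 12. Srebf1, Fdft1, Hsd17b7 and Fads1 were no longer called there, and Ebp, Dhcr7 and Fads2 were called higher. Over all genes 991 were higher and 676 lower with this covariate, against 1047 and 862 in the main fit. Among the arrays with low Xist alone, chosen after seeing the data, 4 5XFAD arrays faced 1 WT array, WT 2. There the estimates were 1.11 for Srebf2, 0.96 for Hmgcs1 and 1.41 for Fdps. They were smaller for Insig1 (0.27), whose WT 2 value was high, and for Srebf1 (0.16). Without the 4 arrays with the most salivary transcripts, 8 genes were higher and Fads1 lower, with 730 higher and 713 lower over all genes. Across 36 planned settings, or 35 where a setting removed the gene, Srebf2, Insig1, Hmgcs1, Pmvk, Fdps, Sqle, Cyp51 and Stard4 were called higher in every one.

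Markers of microglia and of other cells moved between WT and 5XFAD as well. Of 10 microglia markers 9 were called lower in 5XFAD and none higher. Border macrophage markers had means of 5.78 to 6.60 in WT and 5.01 to 5.73 in 5XFAD, without overlap, and 3 of 10 were called lower, Mrc1, Pf4 and Stab1. With their mean as a covariate 10 of the 12 genes were called higher, all but Srebf1 and Hsd17b7, and none lower. Over all genes 774 were higher and 531 lower in that setting, against 1047 and 862 in the main fit. Astrocyte markers had means of 4.91 to 5.08 in WT, 4.66 to 4.93 in Trem2-/-, 5.17 to 5.50 in 5XFAD and 4.94 to 5.18 in Trem2-/-5XFAD, again without overlap between WT and 5XFAD. Of 7 tested, Gfap was called higher in 5XFAD and Slc1a3 lower, while Aqp4, Slc4a4 and Aldh1l1 lay under the 40th percentile on every array. With the mean of other brain cell markers, astrocyte markers included, as a covariate, 11 genes were called higher and none lower. These 11 included Sc5d and Fads2, which were not among the 12, while Srebf1, Fdft1 and Hsd17b7 were no longer called. Over all genes 757 were higher and 503 lower with this covariate. The part of these markers in the result was not tested further.

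Sequence upstream of these genes is shown because they moved together and because SREBPs and their partner NF-Y bind known promoter elements. Windows of 250 bases before to 50 after a start site were held by RefSeq's table (build GRCm38.p6) for 23 of the 28 genes. The 7 stretches below are the 250 bases before the start, 5′ to 3′ on the strand of the gene, for 5 genes that rose in 5XFAD and for Mvd and Insig2, which were called in no comparison. These 7 were chosen after their values were seen. Capitals mark TCACNCCA (a core of the sterol response element), CCAAT (the NF-Y box, ATTGG when read on the opposite strand) and CACGTG (the E-box), on either strand.

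Srebf2, chr15:82147019-82147268, plus strand: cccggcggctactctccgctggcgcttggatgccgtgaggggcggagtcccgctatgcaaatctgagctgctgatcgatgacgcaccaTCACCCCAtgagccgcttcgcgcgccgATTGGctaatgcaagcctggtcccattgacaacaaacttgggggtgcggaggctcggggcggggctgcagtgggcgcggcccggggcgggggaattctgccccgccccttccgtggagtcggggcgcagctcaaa

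Insig1, chr5:28071162-28071411, plus strand: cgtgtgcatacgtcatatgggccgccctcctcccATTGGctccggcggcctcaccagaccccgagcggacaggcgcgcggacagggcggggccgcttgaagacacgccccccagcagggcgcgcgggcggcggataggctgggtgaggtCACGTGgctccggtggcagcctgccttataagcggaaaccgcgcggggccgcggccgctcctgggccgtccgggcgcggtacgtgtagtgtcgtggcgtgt

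Hmgcs1, chr13:119690101-119690350, plus strand: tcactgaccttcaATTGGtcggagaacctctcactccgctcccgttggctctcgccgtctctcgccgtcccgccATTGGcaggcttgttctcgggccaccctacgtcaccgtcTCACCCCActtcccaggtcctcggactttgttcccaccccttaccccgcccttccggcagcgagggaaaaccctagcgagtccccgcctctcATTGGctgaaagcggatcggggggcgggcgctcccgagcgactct

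Cyp51, chr5:4104698-4104947, minus strand: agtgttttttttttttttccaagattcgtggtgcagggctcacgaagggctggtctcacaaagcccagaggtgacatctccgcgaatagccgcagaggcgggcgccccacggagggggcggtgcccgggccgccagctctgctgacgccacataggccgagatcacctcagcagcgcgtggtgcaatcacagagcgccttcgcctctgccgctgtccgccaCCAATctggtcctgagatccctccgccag

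Msmo1, chr8:64733579-64733828, minus strand: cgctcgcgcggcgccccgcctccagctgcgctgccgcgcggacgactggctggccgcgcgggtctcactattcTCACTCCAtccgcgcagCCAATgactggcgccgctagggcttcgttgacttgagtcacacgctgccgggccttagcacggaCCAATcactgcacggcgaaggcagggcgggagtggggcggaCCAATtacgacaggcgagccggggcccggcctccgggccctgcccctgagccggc

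Mvd, chr8:122443423-122443672, minus strand: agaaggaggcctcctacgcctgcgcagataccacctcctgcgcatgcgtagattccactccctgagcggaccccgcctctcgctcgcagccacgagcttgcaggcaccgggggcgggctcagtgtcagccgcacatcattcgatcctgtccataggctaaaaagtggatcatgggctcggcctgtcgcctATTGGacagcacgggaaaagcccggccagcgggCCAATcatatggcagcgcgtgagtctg

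Insig2, chr1:121332590-121332839, minus strand: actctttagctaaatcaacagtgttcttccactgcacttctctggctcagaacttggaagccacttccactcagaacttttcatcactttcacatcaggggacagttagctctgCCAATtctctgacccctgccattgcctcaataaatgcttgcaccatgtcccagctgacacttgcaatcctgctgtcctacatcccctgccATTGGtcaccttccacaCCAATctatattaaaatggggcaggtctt

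In Srebf2 the sterol element core begins 162 bases before the start, with an opposite-strand CCAAT at 135. Hmgcs1 has the core at 137 bases and 3 opposite-strand CCAAT boxes, and Msmo1 has it at 177 bases with 3 CCAAT boxes on its own strand. Those 3 genes were the holders of TCACNCCA among the 23, and 4.36% of all 32851 windows hold it. Hmgcs1 was the 1 gene with the longer form TCACNCCAC, found in 1.24% of all windows, and none of the 23 held TCACNCCTC, TCACNCGAC or TCACGTGA. CCAAT was present for 20 of the 23 genes and in 67.7% of their 31 windows, against 37.4% of all windows. It was found for 8 of 8 genes called higher in 5XFAD that had a window and for 12 of 14 measured genes not called higher, Mvd and Insig2 among them. CACGTG was present for 5 of the 23, Insig1 included, and in 7.15% of all windows. TCACNCCA and CACGTG were added after the sequences had been read, and a match of letters is not evidence of binding.

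The next comparison, Trem2-/-5XFAD vs 5XFAD, asks how the same genes stand in plaque-bearing brains when Trem2 is missing. None of the 27 rose, 12 fell and 15 did not pass the test, where 7.68% of all genes were called and 4.46% were lower. The median log2 difference was -0.43, against 0.04 over all genes. In 11 of the 27 every Trem2-/-5XFAD array lay below every 5XFAD array, which 4.11% of tested genes did. This comparison uses the same 5XFAD arrays as the one before, so the values of a gene in both are not independent of each other.

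Srebf2 in Trem2-/-5XFAD had a lowest, median and highest value of 6.27, 6.47 and 6.48, under the lowest 5XFAD array at 7.37. The fall was 1.12 ± 0.11, or 2.18-fold (adjusted p = 3.6e-07). Srebf1 differed by -0.22 ± 0.10 and was not called (adjusted p = 0.221). Insig1 lay between 8.04 and 8.16 in the 6 arrays, with a median of 8.13, a narrow band below all 5 5XFAD arrays, and it fell by 1.01 ± 0.19. Insig2 (0.03 ± 0.16) and Scap (0.04 ± 0.11) were not called.

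The enzymes that had risen in 5XFAD were lower here. Hmgcs1 had a lowest, median and highest value of 5.38, 5.82 and 6.08 and fell by 1.03 ± 0.14 (adjusted p = 3.9e-05). Cyp51, at 5.33, 5.77 and 5.96, fell by 1.49 ± 0.16, the widest difference of the 27 in this comparison (2.81-fold, adjusted p = 2.5e-06). Msmo1, at 5.63, 6.26 and 6.59, fell by 1.12 ± 0.19. None of these 3 genes overlapped between the groups. Smaller falls were those of Sqle (0.98 ± 0.17), Hsd17b7 (0.91 ± 0.20), Fdps (0.82 ± 0.16), Pmvk (0.58 ± 0.13) and Fdft1 (0.49 ± 0.14). The call of Fdft1 was kept in 24 of 36 planned settings. Sqle exceeded the 40th percentile in 5 of the 6 Trem2-/-5XFAD arrays, so its fall ends close to the filter.

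Sc5d, the desaturase near the end of the pathway, was called here though not in 5XFAD vs WT. It was 7.75, 7.35, 7.02, 7.44 and 7.15 in 5XFAD and 5.08, 6.27 and 6.57 as the lowest, median and highest value in Trem2-/-5XFAD. The groups were separate, and 1 array, Trem2-/-5XFAD 6, lay well under the rest. Sc5d fell by 1.20 ± 0.21 (adjusted p = 8.5e-04), and with each array left out in turn it remained called in all 19 cases. Stard4, at 4.22, 4.51 and 4.86, fell by 1.05 ± 0.15, to a level above the 40th percentile in 4 of 6 arrays. Fads1, by contrast, differed by 0.17 ± 0.20 between these groups, with a 95% interval of -0.25 to 0.60.

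Border macrophage markers moved with this comparison as well. Their mean level lay between 5.01 and 5.73 in 5XFAD and between 6.12 and 6.77 in Trem2-/-5XFAD, and 8 of 10 were called higher. Mrc1, Cd163 and Lyve1, which define these cells, were above the filter. Mrc1 and Cd163 were among the 8, while Lyve1 was not called. With the mean of the border macrophage markers as a covariate, 6 of the 12 genes were still called lower: Srebf2, Insig1, Hmgcs1, Fdps, Cyp51 and Stard4. Over all genes 104 were higher and 242 lower in that setting, against 409 and 568 in the main fit. Since the border macrophage means do not overlap between the groups, the covariate removes some of the difference between genotypes too. The markers' part in the result was not tested further. Microglia markers had means of 10.80 to 11.00 in 5XFAD, 11.42 to 11.62 in WT and 11.20 to 11.31 in Trem2-/-5XFAD. Oligodendrocyte markers, which would accompany myelin RNA, had means of 4.69 to 4.89 in 5XFAD and 4.72 to 4.87 in Trem2-/-5XFAD, with none of 7 called between them and Ermn and Opalin at or under the 40th percentile on every array. Against WT, at 4.66 to 4.86, 1 of the 7 rose in 5XFAD, the myelin gene Mbp. Of the 7 astrocyte markers Gfap and Aldoc were called lower in Trem2-/-5XFAD vs 5XFAD. With the mean of other brain cell markers as a covariate 10 of the 12 genes were still called lower, all but Fdft1 and Hsd17b7. Over all genes 166 were higher and 342 lower with that covariate. Among arrays with low Xist alone, 6 Trem2-/-5XFAD and 4 5XFAD, 11 genes were called lower, all of the 12 but Fdft1.

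Without plaques, loss of Trem2 gave no call among these genes. In Trem2-/- vs WT 0 of 27 passed the limma test, where 0.613% of all genes were called, and 2 had an unadjusted p under 0.05. Those were Idi1 (0.65 ± 0.31) and Sc5d (-0.63 ± 0.25). No share of all genes was taken at the unadjusted threshold, here or in the comparisons that follow. Idi1 spanned 4.83 to 6.92 in Trem2-/- on its brighter probe set, and its dimmer probe set differed the other way (-0.33 ± 0.24). Srebf2 differed by 0.03 ± 0.13, with a 95% interval of -0.24 to 0.29, and Cyp51 by 0.06 ± 0.19, with an interval of -0.34 to 0.46. Insig1 differed by 0.39 ± 0.22. It was called higher once the 4 arrays with the most salivary transcripts were left out. That setting keeps Trem2-/- 3, WT 4 and Trem2-/- 2, the arrays with the next highest salivary means. Its WT arrays were WT 3 (7.33 for Insig1) and WT 4 (7.67), without WT 2, the highest at 8.76. Over all genes 208 were higher and 63 lower there, against 49 and 29 in the main fit. Sc5d in Trem2-/- was 6.49, 5.95, 5.61 and 6.25, every array below the lowest WT array at 6.57. It was the 1 gene of 27 with that pattern, which 2.69% of tested genes showed. Acly was the 1 of 27 with every Trem2-/- array, 7.78 to 7.88, above every WT array, 7.69 to 7.74, as 3.10% of tested genes had.

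The 5XFAD transgenes likewise gave no call among them in mice without Trem2. In Trem2-/-5XFAD vs Trem2-/- 0 of 27 passed the limma test, where 2.18% of all genes were called, and 1 had an unadjusted p under 0.05 (Fads2, 0.33 ± 0.15). The median log2 difference was 0.02, and the differences ran from -0.48 for Idi1 to 0.35 for Sqle. Srebf2 differed by -0.02 ± 0.11 (95% interval -0.26 to 0.22), Hmgcs1 by -0.01 ± 0.15 (-0.32 to 0.30) and Cyp51 by -0.02 ± 0.17 (-0.38 to 0.35). The upper bounds of these 3 intervals lie below the rises of the same genes in 5XFAD vs WT.

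Set against WT, Trem2-/-5XFAD also gave 0 called genes of 27 in limma, where 5.22% of all genes were called, and 3 had an unadjusted p under 0.05. They were Pmvk (0.45 ± 0.14, adjusted p = 0.0677), Sc5d (-0.57 ± 0.23) and Fads1 (-0.54 ± 0.22). Srebf2 differed by 0.01 ± 0.11, with a 95% interval of -0.23 to 0.25, and Stard4 by 0.10 ± 0.16, with an interval of -0.24 to 0.44. Fads1 was 7.18, 7.73 and 8.42 as the lowest, median and highest value in Trem2-/-5XFAD, close to its level in 5XFAD, so its mean was lower than in WT in both transgenic groups although the test was passed in 5XFAD alone. Pmvk was called higher here without WT 3, among arrays with low Xist, and with other brain cell markers as a covariate.

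**Figure D3:**
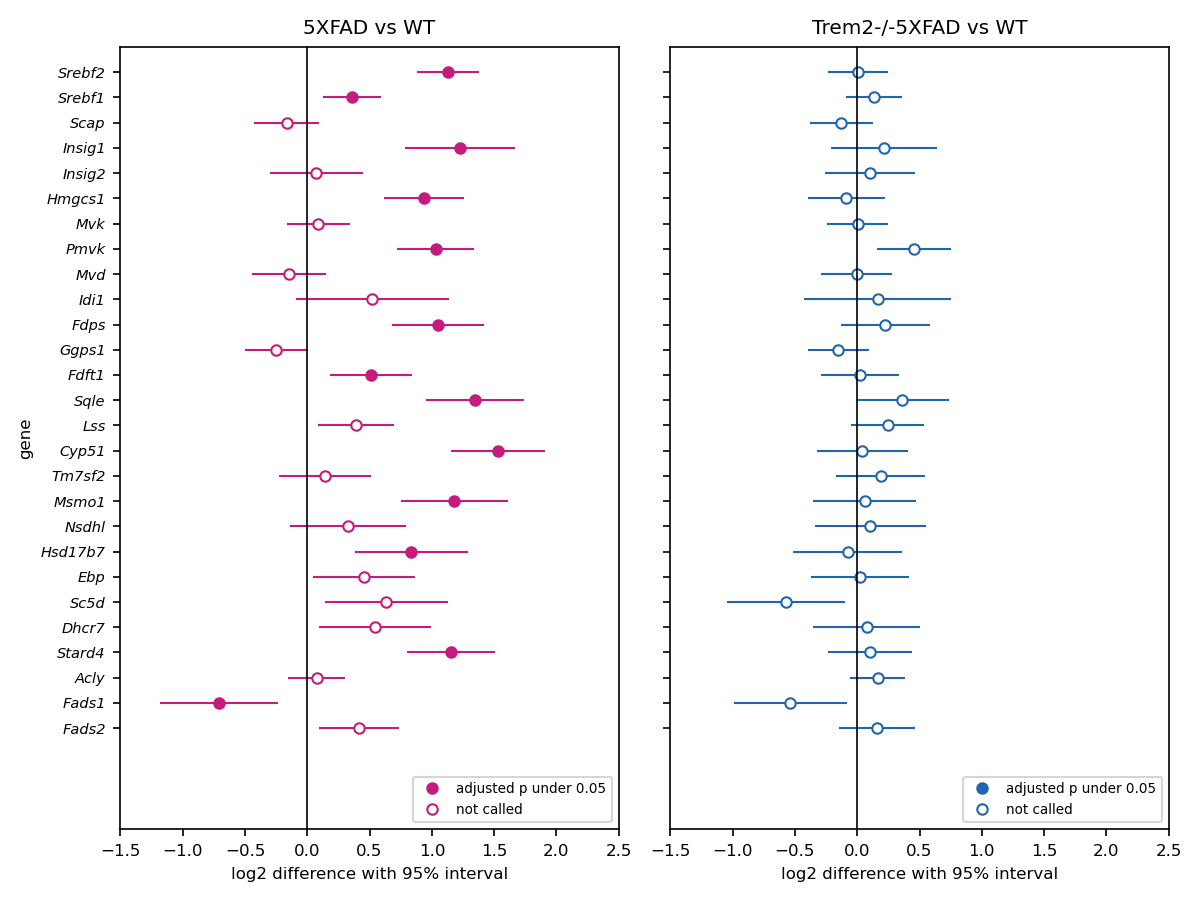
Log2 differences of the 27 genes from WT with 95% intervals (limma), in 5XFAD (left) and Trem2-/-5XFAD (right). Filled points passed adjusted p under 0.05: 13 of 27 on the left, none on the right, where most intervals lie around 0 and those of Pmvk, Sc5d and Fads1 do not include it.

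Whether the change with 5XFAD differed between mice with and without Trem2 was tested directly, as the change in Trem2-/- mice minus the change in mice with Trem2. This interaction was called lower for 9 of 27 genes and higher for none, where 2.60% of all genes were called and 1.58% were lower. The 9 were the regulators Srebf2 (-1.15 ± 0.17, adjusted p = 3.4e-04) and Insig1 (-1.40 ± 0.29), Hmgcs1 (-0.94 ± 0.21), Pmvk (-0.78 ± 0.20), Fdps (-1.02 ± 0.25), Sqle (-0.997 ± 0.26), Cyp51 (-1.55 ± 0.25), Msmo1 (-1.39 ± 0.29) and Stard4 (-1.10 ± 0.24). Hsd17b7 (-1.03 ± 0.30), Sc5d (-0.57 ± 0.33) and Fdft1 (-0.38 ± 0.22), which fell in Trem2-/-5XFAD vs 5XFAD, had no called interaction. For Srebf1 the interaction was -0.15 ± 0.16 and for Insig2 -0.36 ± 0.25, neither called. Fads1, with 0.34 ± 0.31, was not called either.

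The number of genes with a called interaction moved with the arrays used. Over all genes the main fit called 130 higher and 201 lower. The interaction was called for 5 genes without the 4 arrays with the most salivary transcripts, with 137 higher and 223 lower over all genes. It was called for 5 without Trem2-/- 1 and Trem2-/-5XFAD 1, with 70 higher and 138 lower over all genes. It was called for 6 without Trem2-/- 1 or without 5XFAD 1. With Xist as a covariate it was called for 8 genes, with 121 higher and 189 lower over all genes. Among arrays with low Xist alone WT and Trem2-/- had 1 array each, so estimates alone are given here. They were -0.83 for Srebf2, -1.49 for Cyp51 and -0.28 for Insig1. With the mean of other brain cell markers as a covariate the interaction was called for 9, with 109 higher and 187 lower over all genes. The astrocyte marker Gfap itself had an interaction called lower. Srebf2, Insig1, Cyp51 and Stard4 were called in every planned setting. The call was kept in 34 of 35 planned settings for Msmo1, 33 of 35 for Hmgcs1 and 28 of 35 for Fdps, but in 13 of 34 for Sqle and 12 of 35 for Pmvk.

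Idi1 and Fdft1 have a dimmer probe set each, which gives a separate reading of the same gene. The dimmer Idi1 probe set was 4.32 to 4.76 in WT, 4.03 to 4.38 in Trem2-/-, 4.95 to 6.12 in 5XFAD and 3.84 to 4.92 in Trem2-/-5XFAD. All 5 5XFAD arrays exceeded all arrays of the other groups, a separation that the brighter Idi1 probe set did not have. The gap was narrow, from 4.92 in Trem2-/-5XFAD 2 to 4.95 in 5XFAD 4. Means of the dimmer probe set in Trem2-/- (4.23) and Trem2-/-5XFAD (4.19) lay close to the filter. The brighter probe set had its highest mean in Trem2-/- (5.84), so the 2 differ there. On the dimmer Idi1 probe set the difference was 0.95 ± 0.23 in 5XFAD vs WT and -1.32 ± 0.21 in Trem2-/-5XFAD vs 5XFAD. With the mean of the probe sets, Idi1 was called in both comparisons (0.74, limma adjusted p = 0.0143, and -0.84, adjusted p = 0.00460). The dimmer Fdft1 probe set differed by 0.78 ± 0.18 and -1.09 ± 0.16 in those comparisons, in the same directions as the brighter one.

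**Figure D4:**
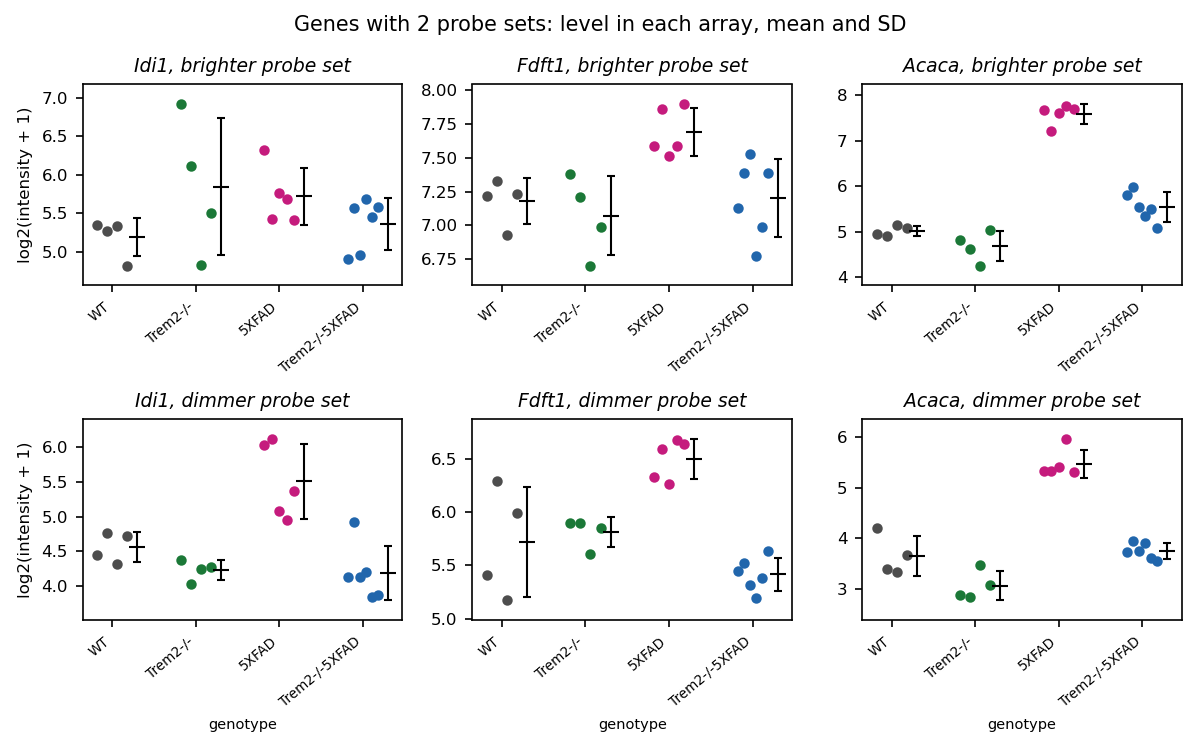
Level of Idi1, Fdft1 and Acaca in each array on their brighter (top) and dimmer (bottom) probe set, as log2(intensity + 1) on axes that differ between panels. Points are arrays, with the mean and SD as a bar beside them. On both Acaca probe sets and on the dimmer Idi1 probe set every 5XFAD array lies above every array of the other groups.

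Neighbouring genes of lipid synthesis were read in the same model. Of 25 listed genes of sterol processing, fatty acid synthesis and side branches, 19 were tested, and in 5XFAD vs WT 4 rose and 1 fell, with a median of 0.03, where 8.23% of all genes rose and 6.77% fell. The 1 that fell was Lpin1, the phosphatidate phosphatase lipin (-0.44 ± 0.14), named after its value was seen. Acaca, acetyl-CoA carboxylase and the committed step of fatty acid synthesis, was 4.90 to 5.14 in WT, 4.25 to 5.03 in Trem2-/-, 7.22 to 7.76 in 5XFAD and 5.08 to 5.98 in Trem2-/-5XFAD. The 5XFAD arrays stood apart from all others. Acaca rose by 2.58 ± 0.17 (5.97-fold, limma adjusted p = 6.2e-10), a larger estimate than that of any of the 27 genes, and fell by 2.05 ± 0.15 in Trem2-/-5XFAD vs 5XFAD. Its dimmer probe set moved in the same directions, by 1.82 ± 0.18 and -1.73 ± 0.16. Acaca was also the 1 neighbouring gene called in Trem2-/-5XFAD vs Trem2-/-, where it was higher (0.87 ± 0.16, adjusted p = 0.00502), and its interaction was -1.71 ± 0.24.

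The fatty acid synthase gene Fasn rose by 0.69 ± 0.15 in 5XFAD vs WT, and the stearoyl-CoA desaturase genes Scd2 and Scd1 by 0.72 ± 0.18 and 0.86 ± 0.27, the latter no longer called without WT 1 (0.58, adjusted p = 0.157). In Trem2-/-5XFAD vs 5XFAD 3 of the 19 fell and none rose, where 4.46% of all genes fell: Acaca, Scd2 by 0.90 ± 0.16, and the fatty acid elongase gene Elovl5 by 0.56 ± 0.14. Scd1 (-0.71 ± 0.25, adjusted p = 0.0962) and Fasn (-0.32 ± 0.13, adjusted p = 0.166) did not pass the test there. In Trem2-/-5XFAD vs WT 2 of the 19 were lower and none higher. Of all 12728 genes 5.22% were called in either direction, 408 higher and 256 lower. The 2 were Elovl5 (-0.53 ± 0.15, limma adjusted p = 0.0372) and Lpin1 (-0.48 ± 0.14, adjusted p = 0.0428). The call of Elovl5 was lost, for example, without WT 1 (-0.38, adjusted p = 0.127). In Trem2-/- vs WT none of the 19 was called in limma. Mir33, the microRNA gene within an intron of Srebf2, was read as well, a choice made after its values were seen. Its probe set reached at most 5.45 intensity units, below the 40th percentile on every array, so it gave no level to compare.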

How the data were processed

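The authors deposited linear intensity values of 20 arrays, in a table of 24679 probe sets. How they were summarised and normalized is not stated per the file headers or the labels, and the array medians show a common scale. Per the labels' protocols, the input was 2 ng of total RNA, labelled as biotinylated cRNA. The platform annotation named 1 gene for 21354 probe sets, several for 1275 and none for 2050. Of the former, 21277 matched the reference gene table, and the brightest probe set stood for each of 19751 genes.

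Values were taken as log2(intensity + 1), so folds of dim genes are understated. Genes above the 40th percentile (16.9 to 19.2 intensity units) in at least 4 arrays were kept, 12728 in all. Tests used limma 3.58.1 (R 4.3.3), with 1 model for all 19 arrays and a mean per group (15 residual and 5.29 prior degrees of freedom) and Benjamini-Hochberg adjustment over all tested genes, and the model was tested on simulated data. All adjusted p-values in the text come from limma. The array titled WT whose genotype says Trem2-/- entered no group. Nothing says whether arrays come from separate animals, so p-values reflect array-to-array spread, which may be technical, and the number of arrays limits the precision. The labels name no pairing by replicate number. Over 25 same-number pairs of arrays from different groups the correlation of deviations ran from -0.104 to 0.166, with 5 over 0.1. Its median was 0.013, against -0.010 for pairs with other numbers. These correlations cannot show whether arrays shared a processing batch, which was not tested.

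The genes and lists were chosen with earlier results of these data known. All 28 genes were named; of other pathway genes those with the 4 smallest p-values in the 2 main comparisons were named. Alternatives comprised 17 planned settings, leaving out each of 19 arrays in turn, and 1 setting added after seeing the data (arrays with low Xist). Promoter windows came from RefSeq.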

Additional observations from a re-analysis of the deposited data

Results flagged for a closer look

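Single arrays stood apart from the rest of their group for 4 of 108 combinations of gene and group, by the gap to the nearest array as a share of the group's range, and chance alone flags about 1 in 20 such combinations. Cyp51 in WT 1 was 6.20, against 5.47 to 5.54 in the other WT arrays (share 0.909). Idi1 in WT 4 was 4.82, with its nearest neighbour at 5.27 (share 0.855). Stard4 in 5XFAD 1 was 6.20, with its nearest neighbour at 5.48 (share 0.740), and Sc5d in Trem2-/-5XFAD 6 was 5.08, with its nearest neighbour at 6.12 (share 0.700). WT 1 and 5XFAD 1 are among the arrays with the most salivary transcripts, whose part in these values was not tested.

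The change with 5XFAD differed between mice with and without Trem2, by the interaction in limma, for Cyp51 (-1.55), Insig1 (-1.40), Msmo1 (-1.39), Srebf2 (-1.15), Stard4 (-1.10), Fdps (-1.02), Sqle (-0.997), Hmgcs1 (-0.94) and Pmvk (-0.78), all log2 differences of differences. In each of the 9 genes the estimated change with 5XFAD was lower in mice without Trem2. The call was kept in 13 of 34 planned settings for Sqle and in 12 of 35 for Pmvk. Of the neighbouring genes, Acaca had an interaction of -1.71.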

How the results depend on the processing

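No called gene changed direction in any setting. Across the 17 planned settings, the 19 arrays left out in turn and the added setting of arrays with low Xist, 7 of 13 calls in 5XFAD vs WT, 6 of 12 in Trem2-/-5XFAD vs 5XFAD and 0 of 9 interactions were kept throughout, and without the added setting 8, 6 and 4. With border macrophage markers as a covariate, 6 genes were lower in Trem2-/-5XFAD vs 5XFAD, with 104 higher and 242 lower over all genes. Without WT 1, WT 2, 5XFAD 1 and 5XFAD 2, 1 gene (Insig1) was higher in Trem2-/- vs WT and 1 in Trem2-/-5XFAD vs WT, and 5 interactions were called. Over all genes that setting called 208 higher and 63 lower in Trem2-/- vs WT, against 49 and 29 in the main fit. In Trem2-/-5XFAD vs WT 1 gene (Pmvk) was higher with other brain cell markers as a covariate and among arrays with low Xist. The interaction was called for 5 genes without Trem2-/- 1 and Trem2-/-5XFAD 1 and for 0 among arrays with low Xist, where a lone WT and a lone Trem2-/- array are assumed to vary like the other groups; fewer arrays are part of these settings' construction, and beyond that the cause was not tested. Leaving out 1 array gave 10 to 14 called genes in 5XFAD vs WT, 11 to 12 in Trem2-/-5XFAD vs 5XFAD, 0 in Trem2-/- vs WT and in Trem2-/-5XFAD vs Trem2-/-, 0 to 1 in Trem2-/-5XFAD vs WT and 6 to 9 interactions. With the replicate number as a block, although the labels name no pairing by it, 14, 11, 0, 0, 0 and 6 genes were called in that order. Centring each array on its median moved the split over all genes in Trem2-/-5XFAD vs 5XFAD from 409 higher and 568 lower to 286 and 625. Sqle and Lss in WT and Trem2-/-, and Stard4 in WT and Trem2-/-5XFAD, lie close to the filter, where signal over background limits the folds. Of the 6 Trem2-/-5XFAD arrays, 4 exceeded the 40th percentile for Stard4 and 5 for Sqle.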

Other observations

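The array with conflicting labels, titled WT but given a Trem2-/- genotype, had a Trem2 level of 11.08 on the log2 scale. The 12 genes that rose in 5XFAD vs WT had a mean level of 5.99 there, against 5.82 to 5.85 in the 4 WT arrays and 6.68 to 7.01 in the 5 5XFAD arrays. These genes were picked for that rise, so the gap between the WT and 5XFAD ranges follows from the choice. The mean was 5.84 to 6.01 in Trem2-/- and 5.87 to 6.03 in Trem2-/-5XFAD arrays. Of the 27 genes, 17 lay within the range of WT, 15 within that of Trem2-/-, 10 within that of 5XFAD and 17 within that of Trem2-/-5XFAD. The array entered no comparison.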
